A study of Mus musculus with 48 samples.

Results

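The first hour after a Toll-like receptor (TLR) ligand was compared between 2 kinds of mouse dendritic cell culture in 8 of the 48 libraries of the series, each set against the untreated library of its own culture. Bone marrow of female C57BL/6J mice aged 6 to 10 weeks was grown with GM-CSF, giving cells named moDC in the labels, or with Flt3L, giving cells named pDC (plasmacytoid dendritic cells). Each culture was sampled untreated and 1 h after 100 ng/ml LPS, 100 ng/ml PAM, 5 µM CpG A or 5 µM CpG B, so 4 libraries at 1 h and 1 untreated library stood on each side. PAM is not spelled out in the labels, and they do not say whether mice were pooled or whether the cultures were sorted. Every condition was 1 library of polyadenylated RNA sequenced at the 3′ ends of transcripts. No replicate libraries were analysed here, so p-values measure a spread between single libraries that differ in ligand, which may be technical or biological. With ligand as a block (a term per ligand shared by both cultures), shared ligand differences are removed. The spread left is then how far the cultures disagree from ligand to ligand. The lone untreated library of each culture is assumed to vary like the others. In bulk RNA, fewer cells of a type and less RNA per cell cannot be told apart.

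TLRs are membrane receptors that recognise microbial molecules. LPS of bacterial walls is recognised by TLR4 at the cell surface with the help of Cd14 and Ly96, and unmethylated CpG DNA is recognised by TLR9 inside endosomes. Their adaptors Myd88 and Ticam1 lead to kinases that free NF-kB, a family of transcription factors, from inhibitors such as the Nfkbia product, and to MAP kinases that switch on immediate early genes, whose transcription needs no new protein. The first wave of transcripts encodes cytokines, chemokines, transcription factors and, as negative feedback, phosphatases, RNA decay factors and NF-kB inhibitors. Plasmacytoid dendritic cells are known for TLR9-driven type I interferon, and dendritic cells grown with GM-CSF for inflammatory cytokines.

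Total counts per library ranged from 255062 to 748152 (median 390775.5), a single count being 1.34 to 3.92 CPM (counts scaled to the same total in each library). A gene with no count may have had up to 4.01 CPM in the deepest and 11.8 CPM in the shallowest library, the level of 3 counts. The moDC CpG A library was the deepest and the pDC CpG A library the shallowest. Most markers of pDC and of myeloid cells separated the cultures as labelled, and both cultures also held genes of other cell types. Of 18 pDC genes tested at 1 h, 15 were lower and 1 higher in moDC, where 9.23% and 12.2% of all genes tested were. With 1 ligand left out 6 or 7 were tested, 4 lower and 0 or 1 higher. Of 23 monocyte and macrophage genes tested, 16 were higher in moDC and 3 lower. With 1 ligand left out 19 or 20 were tested, 14 or 15 higher and 1 or 2 lower. Siglech, a pDC lectin, had 0 to 10.5 CPM in the moDC libraries and 351 to 440 CPM in the pDC libraries, and Lyz2, a myeloid lysozyme, had 22435 to 26654 against 3408 to 3881 CPM. Conventional dendritic cell genes went both ways. The 20 listed summed to 9441 to 11334 CPM in moDC and 3508 to 3849 CPM in pDC. Of 19 tested at 1 h, 5 were higher and 9 lower in moDC, where 12.2% and 9.23% of all genes tested were. Among the lower were Flt3 (0 to 10.5 against 327 to 376 CPM) and Clec9a (0 to 7.9 against 64.5 to 79.5 CPM). Both passed the filter of 20 CPM in 4 libraries through pDC alone. With any 1 ligand left out 10 were tested, 4 or 5 higher and 1 lower. The moDC libraries carried the eosinophil granule genes Prg2 (1063 to 1363 CPM) and Epx (463 to 570 CPM). Summed lists gave the same picture, with 785 to 972 CPM in moDC and 5367 to 6160 CPM in pDC for 22 pDC genes, and 33403 to 38041 against 7294 to 8434 CPM for 29 monocyte and macrophage genes. Neutrophil and granule genes (17 genes) summed to 10767 to 14005 CPM in moDC and 1681 to 1902 CPM in pDC, and the part of such other cells in the results was not tested. Olfactory receptor genes (1099 genes), which neither cell type is known to use, summed to 161 to 344 CPM in moDC and 689 to 3776 CPM in pDC, highest in the pDC CpG A library. Counts of called genes that rest on the CpG A libraries are therefore also given without them.

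Promoters of 5 genes that responded in these libraries are shown because they hold short sequences that NF-kB, CREB or serum response factor are known to bind. Each is the 250 bases before the annotated transcription start (RefSeq, GRCm38.p6), written 5′ to 3′ on the strand of the gene, with matches in capitals. The files use mm9, so no position here was read from them. Cxcl1 (chr5:90890995-90891244, plus strand) and Cxcl2 (chr5:90903649-90903898, plus strand) encode neutrophil-attracting chemokines, Nfkbia (chr12:55492648-55492897, minus strand) an NF-kB inhibitor, Ppp1r15a (chr7:45526269-45526518, minus strand) a subunit that directs a phosphatase to a translation factor, and Zfp36 (chr7:28379229-28379478, minus strand) an RNA decay factor. Cxcl1 and Cxcl2 share the same NF-kB match, which reads on both strands with overlapping matches, at -71 to -61 and at -97 to -87 from the start.
Cxcl1: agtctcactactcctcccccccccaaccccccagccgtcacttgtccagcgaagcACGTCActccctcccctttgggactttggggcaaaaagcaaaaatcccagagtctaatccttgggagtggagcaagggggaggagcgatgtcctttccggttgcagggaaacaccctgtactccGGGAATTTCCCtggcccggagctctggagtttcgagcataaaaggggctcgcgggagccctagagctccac
Cxcl2: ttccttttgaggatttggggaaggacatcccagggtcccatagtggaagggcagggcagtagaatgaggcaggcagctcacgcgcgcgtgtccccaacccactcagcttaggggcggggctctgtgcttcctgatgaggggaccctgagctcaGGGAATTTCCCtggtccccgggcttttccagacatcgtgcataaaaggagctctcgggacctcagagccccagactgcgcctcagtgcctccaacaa
Nfkbia: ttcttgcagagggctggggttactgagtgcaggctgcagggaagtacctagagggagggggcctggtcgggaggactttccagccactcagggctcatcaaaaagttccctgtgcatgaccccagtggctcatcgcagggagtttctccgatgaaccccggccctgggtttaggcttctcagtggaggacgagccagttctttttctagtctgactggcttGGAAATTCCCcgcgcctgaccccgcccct
Ppp1r15a: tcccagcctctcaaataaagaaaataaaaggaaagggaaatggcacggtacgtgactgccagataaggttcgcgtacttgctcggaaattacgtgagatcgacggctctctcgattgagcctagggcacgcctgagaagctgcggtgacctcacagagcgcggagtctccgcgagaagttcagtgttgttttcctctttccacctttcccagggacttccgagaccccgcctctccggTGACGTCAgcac
Zfp36: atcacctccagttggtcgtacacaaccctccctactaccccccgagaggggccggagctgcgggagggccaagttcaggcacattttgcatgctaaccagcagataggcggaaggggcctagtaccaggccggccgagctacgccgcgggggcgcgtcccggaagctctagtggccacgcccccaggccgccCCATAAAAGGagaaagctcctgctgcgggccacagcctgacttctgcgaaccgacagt

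The capitals mark the NF-kB consensus in Cxcl1, Cxcl2 and Nfkbia, the cyclic AMP response core TGACGT in Cxcl1 and Ppp1r15a, and the serum response (CArG) consensus in Zfp36, all searched on both strands. The core in Ppp1r15a overlaps its own match on the other strand. The NF-kB consensus was found in 4.46% of the promoters of 27025 genes in the table, TGACGT in 7.29%, CArG in 1.62% and the AP-1 sequence TGANTCA in 7.82%. Among the genes tested for a response at 1 h, 5119 had a promoter in the table, and these shares were 5.96%, 12.2%, 1.45% and 5.68%. Of the 46 matched genes called higher at 1 h in moDC with ligand as a block (described below), 10 held the NF-kB consensus (21.7%), 9 held TGACGT (19.6%), 2 held CArG (4.35%) and 5 held TGANTCA (10.9%). Of the 55 matched genes called higher in pDC, 11 (20%), 10 (18.2%), 3 (5.45%) and 6 (10.9%) held them. The windows of Tnf and Il1b held none of the 4. A match is a description of letters and says nothing about binding.

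The cultures were first compared at 1 h, ligand by ligand, which asks which transcripts differ between moDC and pDC once the same ligand has acted. Most chemokine genes, whose products recruit other cells, were higher in moDC, from Cxcl2 and Ccl2 to Ccl17, and so were the cytokines Il1a, Osm, Inhba and Csf1. Immediate early genes (8 higher and 7 lower in moDC of 35) and feedback genes (4 higher and 3 lower of 14) were split. Plk2, Gadd45a, Egr2 and Cish were among those higher in moDC, and Fos, Nr4a1 and Dusp2 among those higher in pDC. Egr1 and Zfp36 were also higher in pDC, but were not called without ligand as a block. Most genes of the NF-kB pathway were not called in either direction, and nor were most of all genes tested (1419 of 6621 called). Of 6621 genes tested, 808 were higher in moDC (12.2%) and 611 lower (9.23%) by edgeR's quasi-likelihood test with ligand as a block (called where the Benjamini-Hochberg adjusted p was under 0.05 and the change 2-fold or more). Scaled by column totals in place of TMM factors, the split was 608 higher and 1015 lower, and the median log2 fold change of all genes moved from 0.01 to -0.28. Groups that did not overlap were common in CPM, which is scaled by column totals. Of the 6621 genes, 874 (13.2%) had every moDC library at 1 h above every pDC library, and 1696 (25.6%) had the reverse.

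Of 22 chemokine genes in the table, 16 passed the filter of 20 CPM in 4 libraries, which 1 culture alone can satisfy, and 14 were higher in moDC and 0 lower. Their median log2 fold change (moDC over pDC) was 3.46, against 0.01 for all genes tested. With 1 ligand left out at a time, when the 3 libraries of 1 culture can no longer satisfy the filter alone, 13 or 14 were tested, with 11 or 12 higher and 0 lower. Cxcl2 had 8299, 5149, 472 and 9234 CPM in moDC after LPS, PAM, CpG A and CpG B, and 1028, 498, 62.7 and 638 CPM in pDC. Within each ligand moDC was above pDC, although the moDC CpG A library lay below 3 of the pDC libraries. The log2 fold change of Cxcl2 was 3.65 ± 0.13 (standard error, adjusted p = 1.11e-38), and it was already 5.56-fold higher in untreated moDC (95% counting interval 3.59 to 8.96).

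Cxcl3, another neutrophil chemokine, had 1168, 1200, 703 and 2838 CPM in moDC and 22.6, 24.5, 19.6 and 4.30 CPM in pDC in the same order. The groups lay far apart, with a log2 fold change of 6.67 ± 0.23 (adjusted p = 1.76e-39). Ccl17 and Ccl22, ligands of the T cell receptor Ccr4, differed by 7.21 ± 0.15 and 3.61 ± 0.12 and were at similar levels in untreated moDC (5653 and 5640 CPM) and at 1 h (5816 to 7312 and 5961 to 6830 CPM). The inflammatory chemokines Ccl3 and Ccl4 overlapped between cultures. For Ccl4 the call rested on the setting. It had 2278, 665, 330 and 3447 CPM in moDC and 1471, 242, 125 and 3650 CPM in pDC, and its log2 fold change of 1.01 ± 0.14 (adjusted p = 4.41e-09) was 0.71 with column totals, 0.81 without PAM, 0.87 without CpG A and 0.56 without the ligand block (adjusted p = 0.615), all below the 2-fold threshold. Cxcl10 (-0.33 ± 0.24) and Cxcl16 (0.27 ± 0.15) were not called, and Cxcl16 stood at -0.023 under column totals.

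Cytokine genes showed the same order for fewer members. Of 30 genes listed, 15 were tested, of which 9 were higher in moDC and 0 lower, with a median log2 fold change of 1.19. Leaving out 1 ligand at a time tested 10 to 13 of them, with 5 to 7 higher and 0 or 1 lower (5 of 10 without LPS, 1 lower without CpG A and 1 without CpG B), and column totals gave 7 higher and 2 lower. Il1a, which encodes interleukin 1 alpha, had 699, 473, 108 and 948 CPM in moDC and 41.5, 29.9, 3.92 and 43.0 CPM in pDC. The groups did not overlap, and the log2 fold change was 4.51 ± 0.20 (adjusted p = 1.11e-32). The related Il1b had 4082, 1705, 291 and 2736 CPM in moDC and 2243, 1481, 86.3 and 2895 CPM in pDC. It overlapped and was below the fold threshold (0.81 ± 0.13), and it was called without the CpG B libraries (1.05 ± 0.15).

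Il1rn, which encodes the interleukin 1 receptor antagonist, differed by 4.53 ± 0.19, Inhba, an activin subunit, by 4.86 ± 0.27, Osm (oncostatin M) by 4.37 ± 0.33 and Csf1, the macrophage growth factor, by 3.12 ± 0.25, each higher in moDC in 4 of 4 ligand pairs. Tnf had 10110, 5063, 548 and 10445 CPM in moDC against 4238, 2596, 208 and 9167 CPM in pDC. It was higher in moDC within every ligand but overlapped across them, with a log2 fold change of 1.19 ± 0.12 (adjusted p = 2.53e-14) that was 0.90 under column totals and 0.98 ± 0.78 without the ligand block, so that neither was called. Tnfsf9, the ligand of a T cell costimulator, went the other way in 4 of 4 pairs (-0.98 ± 0.17), just inside the 2-fold threshold. It was called lower with column totals (-1.27), without CpG A (-1.04) and without CpG B (-1.28). DESeq2's Wald test (-1.003) and the fit with no filter on low counts (-1.016) also called it lower, narrowly past 2-fold.

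Il12b, the subunit shared by interleukins 12 and 23, depended on the ligand. It had 762, 178, 18.7 and 2543 CPM in moDC and 94.3, 76.2, 66.7 and 1262 CPM in pDC. moDC was higher after LPS, PAM and CpG B and lower after CpG A. Its log2 fold change of 1.70 ± 0.22 (adjusted p = 6.02e-10) was not called by DESeq2's Wald test (1.21 ± 0.85, adjusted p = 0.323) or by edgeR without the ligand block (1.47 ± 1.04, adjusted p = 0.286).

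**Figure D1:**
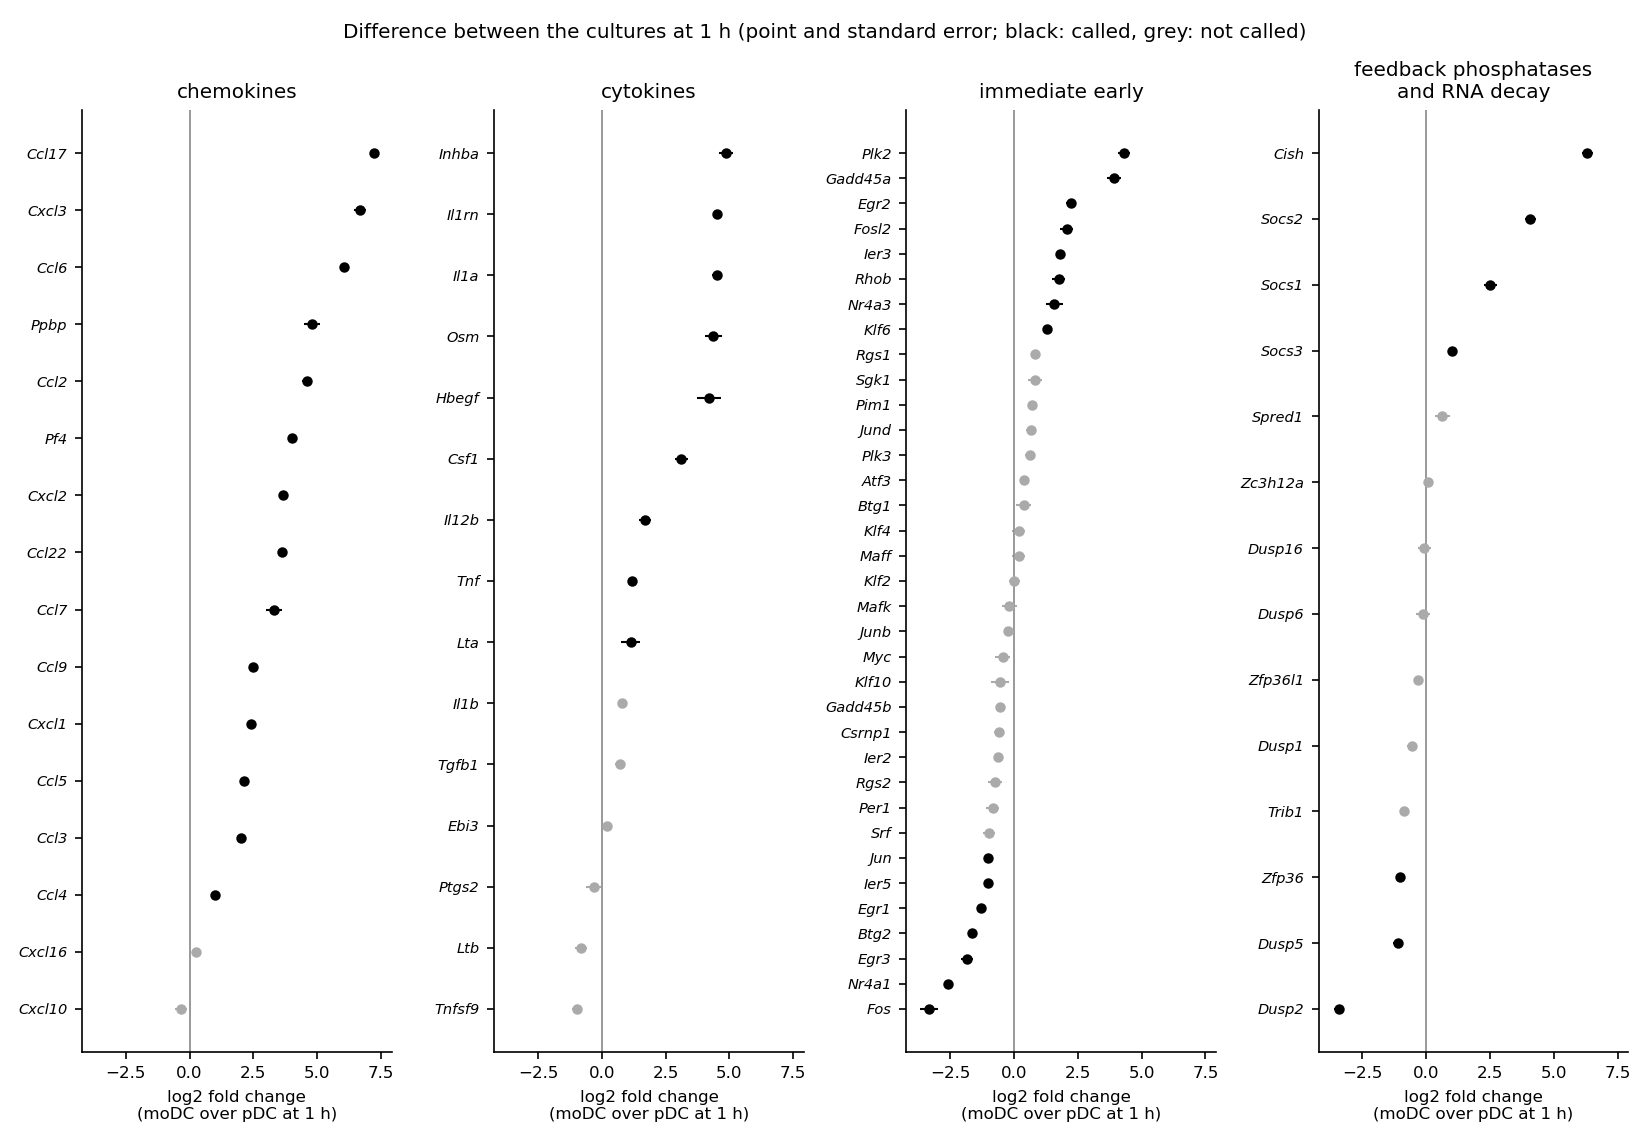
Log2 fold change of moDC over pDC at 1 h (horizontal axis, point with its standard error) for the tested members of 4 gene lists, black where called and grey where not. Chemokines and cytokines lie mostly to the right (14 of 16 and 9 of 15 called higher in moDC), while immediate early genes spread to both sides (8 higher, 7 lower).

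Immediate early genes were split. Of 35 tested out of 40, 8 were higher and 7 lower in moDC, with a median log2 fold change of 0.01, and column totals gave 7 higher and 10 lower. Leaving out 1 ligand gave 7 to 9 higher and 4 to 7 lower, the 4 without PAM. On the pDC side stood Fos, a subunit of the AP-1 factor, with 13.2, 12.4, 1.34 and 5.27 CPM in moDC and 145, 106, 23.5 and 142 CPM in pDC (-3.33 ± 0.34, adjusted p = 8.55e-14). The groups did not overlap. Fos passed the filter of 20 CPM in 4 libraries through pDC alone, where it was high. Nr4a1, an orphan nuclear receptor, had 113, 47.5, 8.02 and 103 CPM in moDC and 604, 422, 51.0 and 937 CPM in pDC. It was lower in moDC in 4 of 4 pairs, and only the pDC CpG A library lay among the moDC libraries (-2.58 ± 0.18, adjusted p = 4.16e-21).

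On the moDC side stood Plk2, a polo-like kinase, with 646, 204, 46.8 and 437 CPM in moDC and 30.2, 19.1, 15.7 and 21.5 CPM in pDC (4.30 ± 0.24, adjusted p = 7.16e-27), and Gadd45a, a stress-response gene (3.91 ± 0.28). Family members went in opposite directions. Egr2, a zinc finger factor, was higher in moDC (2.23 ± 0.18), and its relatives Egr1 (-1.30 ± 0.15) and Egr3 (-1.84 ± 0.25) were lower in moDC, each in 4 of 4 pairs, although Egr1 was not called without the ligand block (-1.38 ± 0.65, adjusted p = 0.106). Junb, an AP-1 partner at 700 to 2634 CPM in moDC and 694 to 4017 CPM in pDC, was not called (-0.24 ± 0.11, adjusted p = 0.0776).

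Feedback genes were split by kind. The list of phosphatases, SOCS proteins and RNA decay factors had 14 tested members of 24, with 4 higher and 3 lower in moDC (2 and 3 without LPS, 4 and 1 without CpG B). The 4 higher in moDC were Socs1, Socs2, Socs3 and Cish of the SOCS family, whose products restrain cytokine receptors. Cish had 557 to 920 CPM in moDC and 0 to 20.7 CPM in pDC (6.31 ± 0.22), and Socs2 differed by 4.07 ± 0.21. Cish is known to be induced by growth factors that signal through STAT5, GM-CSF among them. It stood at 490 CPM in untreated moDC, and the part of GM-CSF in its level was not tested. Dusp2, a nuclear phosphatase of MAP kinases, had 81.7, 43.4, 6.68 and 132 CPM in moDC and 1252, 694, 70.6 and 1453 CPM in pDC. It was lower in moDC within every ligand (-3.44 ± 0.17, adjusted p = 5.09e-29). Zfp36 (-1.03 ± 0.15, 4 of 4 pairs) and Dusp5 (-1.12 ± 0.19, 3 of 4 pairs) were lower by little more than 2-fold. Without CpG B neither was called (-0.81 and -0.95), nor was Dusp5 without LPS (-0.87) or by DESeq2's Wald test (adjusted p = 0.168), or Zfp36 without the ligand block (-1.15 ± 0.59, adjusted p = 0.139). Socs3 (1.03 ± 0.14) was not called without LPS (0.86), without CpG A (0.95), with column totals (0.73) or without the block (0.89, adjusted p = 0.306).

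The NF-kB pathway list had 30 tested members of 32, with 5 higher and 1 lower in moDC and a median of 0.26. Of all genes tested 12.2% were higher and 9.23% lower. Nfkbia had 2613, 2067, 755 and 2683 CPM in moDC and 3031, 2131, 447 and 3699 CPM in pDC, overlapping, and its log2 fold change of 0.26 ± 0.12 (adjusted p = 0.0724) was -0.037 under column totals. The genes of the deubiquitinase Tnfaip3 and of Relb were not called (0.26 ± 0.16 and 0.29 ± 0.14) and had column-total values of -0.036 and -0.0028. The members higher in moDC were the survival genes Bcl2a1a (3.81 ± 0.21), Bcl2a1b (2.26 ± 0.16) and Bcl2a1d (1.28 ± 0.33), near-identical copies among which counting could split reads, together with Sod2, a mitochondrial superoxide dismutase (2.31 ± 0.15), and Malt1, a signalling protease (2.10 ± 0.22). The 1 lower member was Chuk, an inhibitor kinase subunit (-1.48 ± 0.34).

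The receptors for the ligands differed too. Of 32 genes for TLR sensing and signalling, 27 were tested, 7 higher and 6 lower in moDC. Of all genes tested, 12.2% were higher and 9.23% lower. Several of the 27 passed the filter through 1 culture alone, and with any 1 ligand left out 20 or 21 were tested, 5 higher and 2 lower. In those fits 9.28 to 10.1% of all genes tested were higher and 5.96 to 6.68% lower. Tlr4 had 58.0, 66.1, 46.8 and 68.5 CPM in moDC and 5.66, 8.16, 15.7 and 8.60 CPM in pDC, the groups not overlapping (3.03 ± 0.36, adjusted p = 4.70e-11). Tlr9 had 18.5, 12.4, 17.4 and 15.8 CPM in moDC and 84.9, 76.2, 118 and 101 CPM in pDC, the reverse order (-2.28 ± 0.29, adjusted p = 2.40e-10). Tlr4 in pDC rested on 3 or 4 counts per library at 1 h. Tlr4 passed the filter through moDC alone and Tlr9 through pDC alone, each the side where it was high.

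Tlr2, a receptor for bacterial lipoproteins, was higher in moDC (1.50 ± 0.15), as were Cd14 (1.71 ± 0.17) and Tlr13, a receptor for bacterial ribosomal RNA (1.54 ± 0.23). Tlr3, a receptor for double-stranded RNA, and Tlr11 and Tlr12, which recognise profilin of parasites, were lower in moDC (-4.54 ± 0.49, -3.69 ± 0.50 and -2.73 ± 0.41). Tlr7, which senses single-stranded RNA, was not called (-0.61 ± 0.33). Its groups did not overlap, as for 25.6% of all genes tested on the pDC side. The shared adaptor Myd88 was not called. The adaptor Ticam1 was lower in moDC (-1.40 ± 0.27), and Irak3, an inhibitor of the pathway, was higher (2.04 ± 0.33).

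Other groups were counted in the same way. Of all genes tested, 12.2% were higher in moDC and 9.23% lower (9.28 to 10.1% and 5.96 to 6.68% with 1 ligand left out). Of 14 genes of MHC class II presentation tested, 1 was higher in moDC and 7 lower, among them H2-Ab1 at 1272 to 1456 CPM in moDC and 5399 to 7059 CPM in pDC (-1.82 ± 0.10), and the higher one was the protease Ctss (1.01 ± 0.11), which fell under 2-fold in 6 of the alternatives, at 0.72 with column totals and 0.96 without PAM. Of 15 maturation genes tested, 7 were higher and 1 lower (with 1 ligand left out, 12 were tested, 4 higher and 1 or 2 lower), with the chemokine receptor Ccr7 (1.90 ± 0.12) and the T cell inhibitory ligand Cd274 (2.64 ± 0.17) higher in moDC, and Cd83 not called (-0.95 ± 0.15) except without CpG A (-1.26), without the block (-1.16) and with column totals (-1.24). Of 23 interferon-stimulated genes tested, 3 were higher and 4 lower (2 to 4 each way with 1 ligand left out), so neither side was favoured. Irf8 and Cebpb, transcription factors of the 2 lineages, kept to 1 side each. Irf8 had 187 to 209 CPM in moDC and 1707 to 1884 CPM in pDC (-2.91 ± 0.13), and Cebpb 362 to 621 CPM in moDC and 39.2 to 87.1 CPM in pDC (3.13 ± 0.17).

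Of the 10 called genes with the largest change in each direction, those on the moDC side included Prg2, the lectin Mgl2 (7.32 ± 0.25), Ccl17, the uridine phosphorylase Upp1 (7.14 ± 0.39), the pattern recognition protein Ptx3 (7.05 ± 0.31) and Cxcl3. On the pDC side they included Ly6d (-6.78 ± 0.23), Siglech (-6.54 ± 0.31), Klrd1, an NK cell lectin also known in pDC (-7.90 ± 0.42), and Cd7, a lymphoid surface protein that had 0 counts in every moDC library and 220 to 286 CPM in pDC. Siglech and Cd7 passed the filter of 20 CPM in 4 libraries through pDC alone, where they were high. Of the genes on the moDC side, Ptx3 and Cxcl3 also rose in moDC at 1 h in the comparison that follows.

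The second question was how far each culture had moved from its untreated state after 1 h. With LPS, PAM and CpG B, both cultures held higher levels of a shared set of cytokine, chemokine, immediate early and feedback genes than untreated, and CpG A moved few of them. Cxcl2 and Il1a were higher in moDC both before and after, Dusp2 and Nr4a1 were higher in pDC both before and after, and Egr1 changed order.

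Each ligand was 1 library against 1 untreated library, so the following are ratios with no replicate check. Of 6975 genes, 38 stood at least 4-fold above untreated in moDC after LPS (0.545%, log2 ratio of CPM with 10 CPM added), 14 after PAM (0.201%), 1 after CpG A (0.0143%) and 47 after CpG B (0.674%). In pDC the numbers were 53 after LPS (0.76%), 28 after PAM (0.401%), 3 after CpG A (0.043%) and 71 after CpG B (1.02%). Genes at least 4-fold below untreated numbered 2 (0.0287%), 0, 0 and 4 (0.0573%) in moDC and 1 (0.0143%), 0, 1 (0.0143%) and 2 (0.0287%) in pDC. In each ligand the pDC number was above the moDC number, and in each culture the order was CpG B, LPS, PAM and CpG A. With 2 CPM added in place of 10, genes at least 4-fold above untreated after CpG A numbered 15 in moDC and 23 in pDC, and with 50 CPM 0 and 2. Genes at least 4-fold below depended more on this choice, with 31, 13, 2 and 52 in moDC after LPS, PAM, CpG A and CpG B and 12, 17, 25 and 22 in pDC when 2 CPM was added, and 0 in every library when 50 CPM was added.

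The cultures use separate untreated libraries, so their lists can be set against each other. After LPS 26 genes were on both lists, 68.4% of those of moDC and 49.1% of those of pDC. After PAM 10 genes were shared (71.4% and 35.7%), and after CpG B 28 genes (59.6% and 39.4%). Tnf, Cxcl1, Cxcl2, Il1b, Nfkbiz, Rasgef1b, Socs3, Tnfaip3, Tnfsf9 and Zfp36 were shared after PAM, and all of them were also shared after LPS and after CpG B. After CpG A the 1 shared gene was Rpph1, the RNA of ribonuclease P. Across all 6975 genes the log2 ratios of moDC and pDC had Pearson's r of 0.31 for LPS, 0.19 for PAM, -0.05 for CpG A and 0.39 for CpG B, where genes are not independent and most lie near 0.

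**Figure D2:**
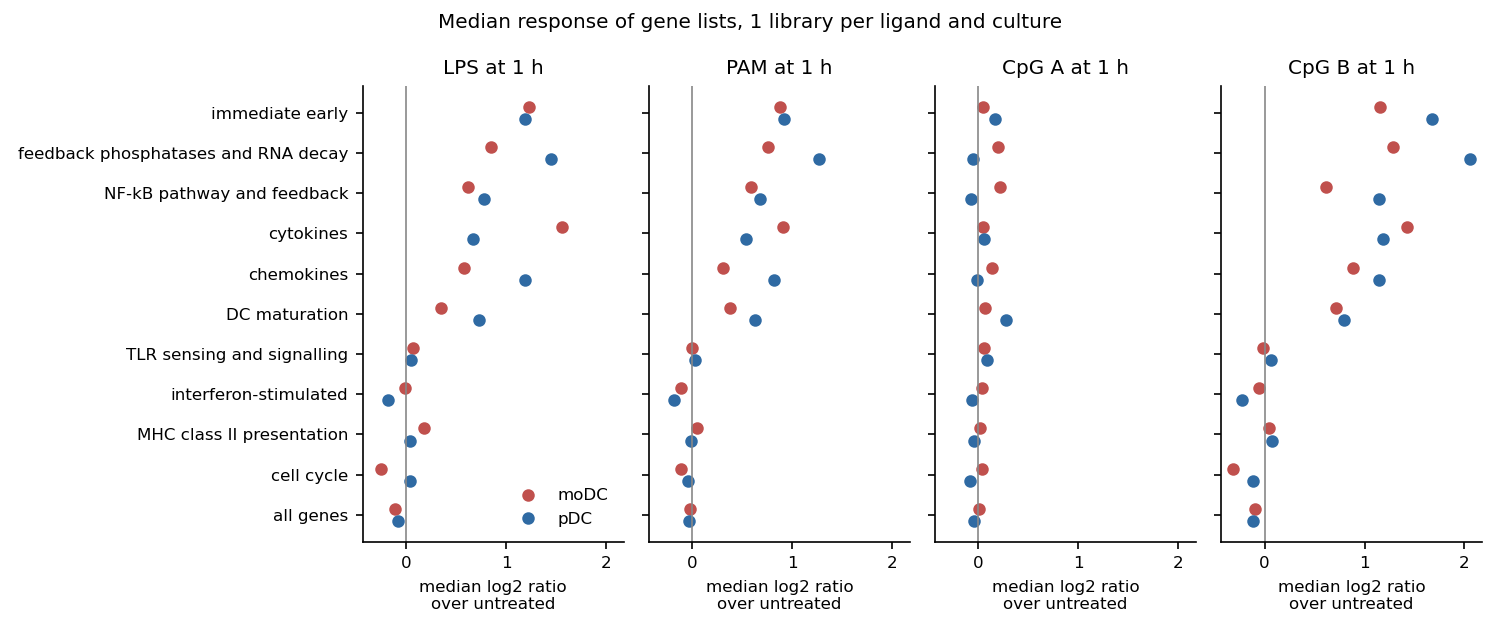
Median log2 ratio over untreated (horizontal axis, CPM with 10 CPM added) of 10 gene lists and of all 6975 genes, in 4 panels by ligand, 1 library per point. Immediate early, feedback, NF-kB, cytokine and chemokine lists stand to the right after LPS, PAM and CpG B and near 0 after CpG A, and interferon-stimulated genes stay near 0 in all 8 libraries.

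By list, immediate early genes had a median log2 ratio of 1.23, 0.88, 0.04 and 1.16 in moDC after LPS, PAM, CpG A and CpG B, and 1.19, 0.91, 0.17 and 1.67 in pDC. Feedback genes had 0.85, 0.76, 0.20 and 1.28 in moDC and 1.45, 1.26, -0.06 and 2.06 in pDC. Cytokines had 1.56, 0.91, 0.05 and 1.42 in moDC and 0.66, 0.53, 0.05 and 1.19 in pDC. The median of all genes lay between -0.12 and 0.01 in these libraries. Feedback genes thus had the higher median in pDC, and cytokine genes in moDC, after LPS, PAM and CpG B, with no test of the difference between lists. Gene by gene the 2 lists did not part in this way. In edgeR's fit without a ligand block, the response of moDC minus that of pDC had a median log2 value of -0.16 for cytokines (8 of 17 positive). For feedback genes it was -0.14 (6 of 15 positive).

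Over the 4 ligands together, the test without a ligand block called 0 of 6975 genes in moDC (0%), 0 in pDC (0%) and 0 for the difference of responses (0%) by edgeR, with 446, 345 and 293 genes at an unadjusted p under 0.05. DESeq2's Wald test also called 0 in each. Here the gap between CpG A and the other ligands counts as spread. For Tnf the log2 fold change over untreated was 4.93 ± 1.74 in moDC (adjusted p = 0.771) and 5.23 ± 1.80 in pDC (adjusted p = 0.914). With ligand as a block shared by both cultures, 64 genes were higher (0.918%) and 2 lower (0.0287%) in moDC and 85 were higher (1.22%) and 3 lower (0.043%) in pDC. Without the CpG A libraries and with no block, 36 were higher (0.542%) and 0 lower in moDC, and 78 were higher (1.17%) and 1 lower (0.0151%) in pDC. Values in the next paragraphs are from the fit with the ligand block. In that fit differences between ligands that both cultures share do not count as spread, and each untreated library is fitted exactly. The p-values of that fit therefore do not measure spread between ligands or between untreated libraries.

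Some cytokine and chemokine genes rose in each culture. Of 17 cytokine genes tested, 7 rose in moDC and 5 in pDC, and of 16 chemokine genes 6 and 6. Without the CpG A libraries and with no block, 4 and 3 of 15 cytokine genes and 5 and 7 of 16 chemokine genes were called. Tnf rose from 231 CPM in untreated moDC to the levels given above, a log2 fold change of 4.24 ± 0.24 (adjusted p = 5.77e-23), and from 117 CPM in untreated pDC, by 4.33 ± 0.26 (adjusted p = 1.19e-21). Even after CpG A it stood above untreated, 2.37-fold in moDC (95% counting interval 1.886 to 2.998) and 1.78-fold in pDC (1.17 to 2.72), where after LPS it stood 43.7-fold and 36.4-fold above. Cxcl2 rose from 353 CPM by 3.47 ± 0.22 in moDC and from 63.6 CPM by 2.57 ± 0.28 in pDC. Il1a rose in moDC from 62.2 CPM by 2.85 ± 0.30 (adjusted p = 4.22e-11) and had 13.2 CPM in untreated pDC, with 3.92 to 43.0 CPM at 1 h. Il1b rose in both, by 2.52 ± 0.25 and 3.31 ± 0.29.

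Ptgs2, the inducible prostaglandin synthase, was called in both cultures, with 0 counts in untreated moDC and 22, 6, 3 and 34 counts at 1 h. It stood at least 7.77-fold higher after LPS and at least 12.0-fold higher after CpG B, against the level that 3 counts would give in the untreated library. In pDC it had 2 counts untreated and 35, 15, 3 and 58 counts at 1 h. Il12b rose 53.8-fold after CpG B in moDC (34.3 to 89.7) and 39.7-fold in pDC (22.5 to 77.3). After LPS its ratio was 16.1 (10.1 to 27.2) in moDC and 2.97 (1.56 to 6.12) in pDC.

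**Figure D3:**
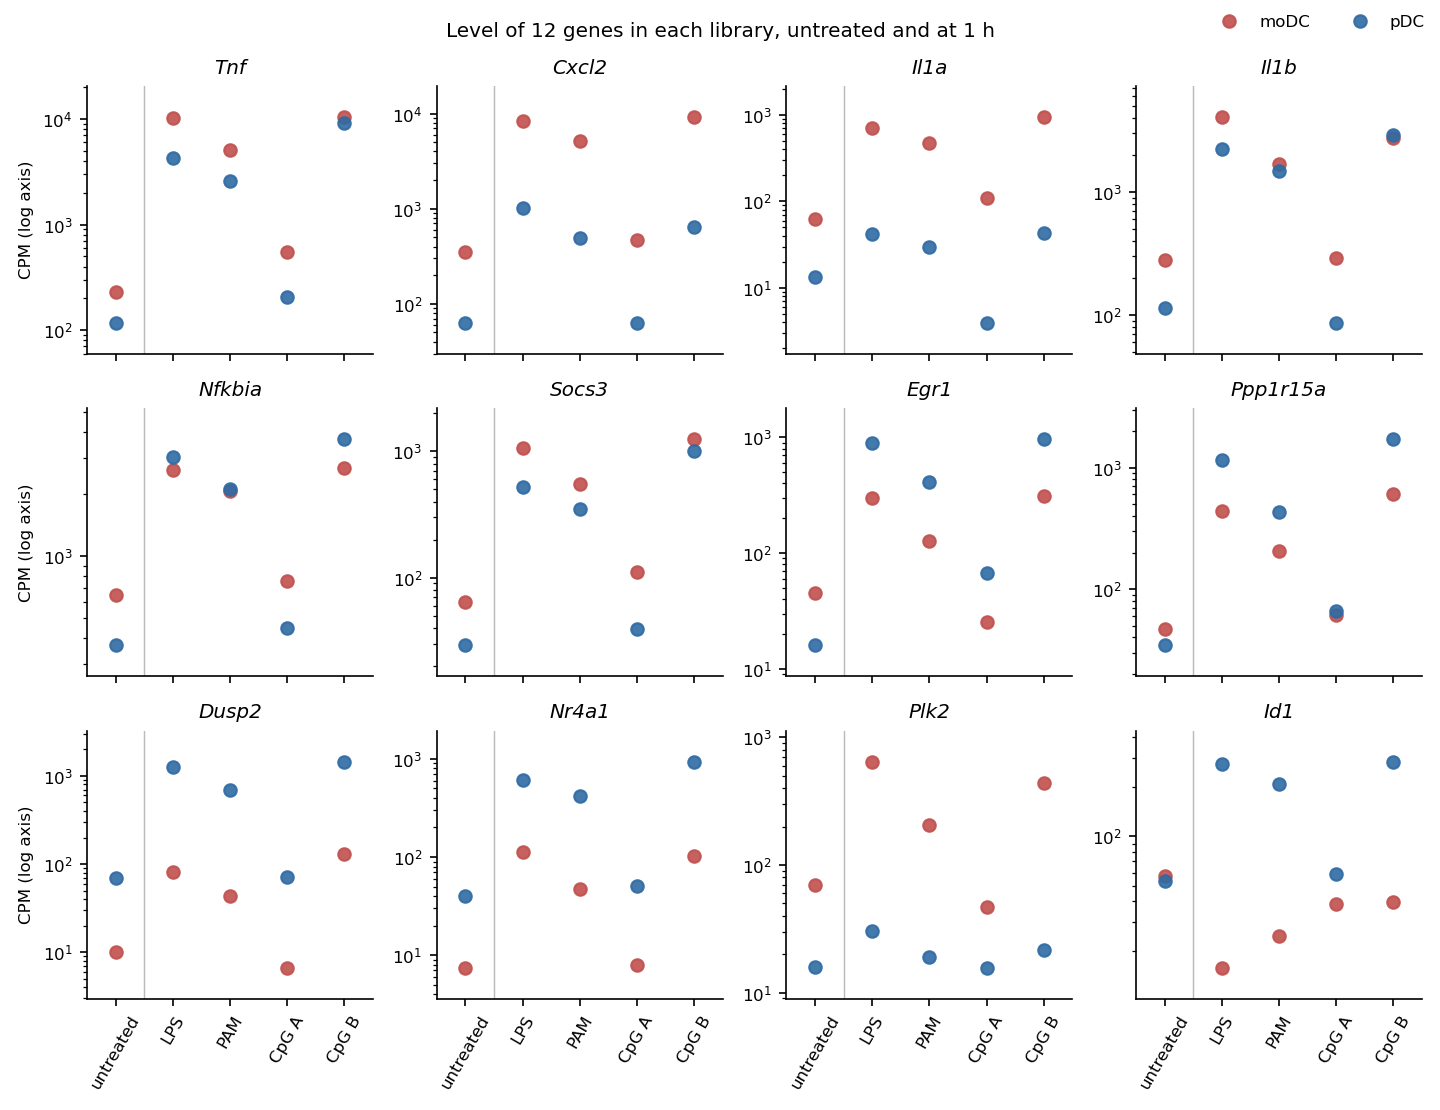
Levels of 12 genes in CPM (vertical log axis) in the untreated library and in the 4 libraries at 1 h of moDC (red) and pDC (blue), 1 library per point. Tnf, Nfkbia and Socs3 reach like levels in both cultures after CpG B, Cxcl2 and Il1a stay higher in moDC, Dusp2 and Nr4a1 stay higher in pDC, and Egr1 changes order between untreated and 1 h.

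Of 30 genes of the NF-kB list tested, 7 rose in moDC and 9 in pDC (5 and 10 without CpG A and with no block). Nfkbia rose from 650 CPM by 1.56 ± 0.21 in moDC (adjusted p = 9.86e-08) and from 368 CPM by 2.42 ± 0.23 in pDC (adjusted p = 3.53e-13). It was 1.76-fold higher in untreated moDC (1.43 to 2.18) and 0.725-fold as high there as in pDC after CpG B (0.671 to 0.784). Tnfaip3, which removes ubiquitin chains from signalling proteins, rose from 14.9 CPM by 3.75 ± 0.45 and from 13.2 CPM by 3.95 ± 0.48, and in the untreated pDC and pDC CpG A libraries it was equally low (13.2 and 11.8 CPM). Socs3, which blocks cytokine receptors, rose by 3.10 ± 0.30 in moDC and 3.51 ± 0.37 in pDC.

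Immediate early and feedback genes rose in more members in pDC. Of 35 immediate early genes tested 11 rose in moDC, and in pDC 15 rose and 1 fell. Without CpG A and with no block, 6 of 35 rose in moDC, and in pDC again 15 rose and 1 fell. Of 15 phosphatase, SOCS and decay genes 4 rose in moDC and 8 in pDC (3 and 8 of 14 without CpG A), and the difference in these counts was not tested. Egr1, a zinc finger factor downstream of MAP kinases, had 44.8 CPM in untreated moDC and 301, 126, 25.4 and 313 CPM at 1 h. In pDC it had 15.9 CPM untreated and 890, 408, 66.7 and 965 CPM at 1 h. Untreated moDC was 2.82-fold above untreated pDC (1.07 to 8.67, 18 against 6 counts), and at 1 h moDC was below pDC in every ligand, at 0.309-fold to 0.381-fold.

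Ppp1r15a, whose promoter is shown above, went from 47.3 to 438, 206, 61.5 and 606 CPM in moDC (2.37 ± 0.34) and from 34.4 to 1164, 433, 66.7 and 1709 CPM in pDC (4.03 ± 0.35). Nr4a1 rose by 2.65 ± 0.64 and 3.14 ± 0.36. Dusp2 rose in pDC from 68.9 CPM by 3.07 ± 0.30 (adjusted p = 2.78e-12). In moDC Dusp2 was not called (2.10 ± 0.58, adjusted p = 0.0510), with 4 counts (9.96 CPM) untreated, and its ratios were 8.21 after LPS (2.90 to 32.0) and 13.2 after CpG B (4.85 to 50.4), both with wide intervals. Zfp36 rose by 2.27 ± 0.35 and 2.50 ± 0.29.

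Plk2 rose in moDC (1.81 ± 0.32), where 3 of 4 libraries stood above the untreated 69.7 CPM, and had 15.9 CPM in untreated pDC with 15.7 to 30.2 CPM at 1 h. Maturation genes had moved in part. Cd83, a surface protein of mature dendritic cells, rose in both cultures (1.11 ± 0.28 and 2.11 ± 0.28), Cd274 in moDC (1.42 ± 0.26), and Cd40 (1.91 ± 0.39) and Cd69 (3.19 ± 0.67) in pDC. Of 15 maturation genes these made 2 of the calls in moDC and 3 of 4 in pDC, and without CpG A and with no block edgeR called 4 in pDC and 0 in moDC, where Cd83 (1.29 ± 0.38, adjusted p = 0.205) and Cd274 (1.78 ± 0.45, adjusted p = 0.0943) missed the threshold.

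Of the genes called higher, 38 were common to both cultures, 59.4% of those of moDC and 44.7% of those of pDC, in a fit where both cultures share the ligand terms. Of these 38, 29 had the larger rise in pDC and 9 in moDC. The genes called lower were Thoc3, an RNA export factor (-1.17 ± 0.27), and Adra2a, an adrenergic receptor (-1.44 ± 0.38), in moDC, and Rgs2, a G protein regulator (-1.32 ± 0.32), Haus5 and FAM46A in pDC.

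**Figure D4:**
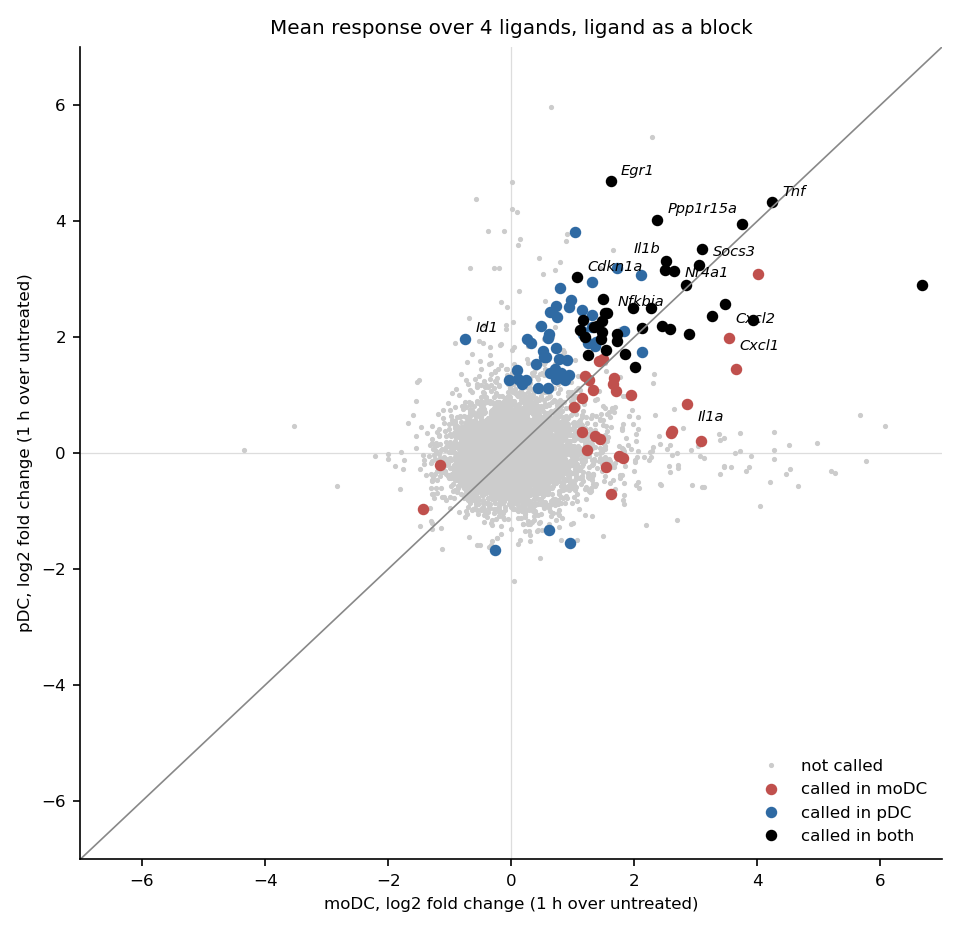
Log2 fold change of 1 h over untreated in moDC (horizontal) and in pDC (vertical) for 6975 genes with ligand as a block. Black points were called in both cultures, red points in moDC, blue points in pDC and grey points in neither, and the line marks equal responses. Of the 38 genes called higher in both, 29 lie above the line, and points far out along an axis include genes with 0 or few counts in 1 untreated library.

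The difference of the responses was tested as an interaction. With the ligand block 1 of 6975 genes was called, Egr1 (0 higher and 1 lower in moDC, 0.0143%), at -3.07 ± 0.63 (adjusted p = 0.0470). Without the block its value was -3.15 ± 2.17 (adjusted p = 0.987), and without the CpG A libraries it was -3.10 ± 1.02 (adjusted p = 0.993), where edgeR called 0 genes (0%) with 309 at an unadjusted p under 0.05. Cdkn1a, a cell cycle inhibitor, had 438 CPM in untreated moDC and 970, 754, 599 and 1224 CPM at 1 h, and 90.1 CPM in untreated pDC and 905, 743, 122 and 1543 CPM at 1 h. Its rise was larger in pDC, and the difference did not pass the threshold (-1.96 ± 0.44, adjusted p = 0.102). Id1, an inhibitor of basic helix-loop-helix factors, had 57.2 CPM in untreated moDC and 15.8, 24.8, 38.8 and 39.5 CPM at 1 h. In pDC it had 53.0 CPM untreated and 273, 207, 58.8 and 284 CPM. Every moDC library at 1 h lay below its untreated library and every pDC library above, and the difference of responses was -2.72 ± 0.62 (adjusted p = 0.103). With no filter on low counts and no block, Egr1, Cdkn1a and Id1 were all called.

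Interferon genes were near the floor at 1 h. Of 18 type I and III interferon genes listed, 0 passed the filter, and their sum was 2.67 to 15.8 CPM in moDC and 13.6 to 82.3 CPM in pDC. The highest sum was in the pDC CpG A library, where olfactory receptor genes were also highest. Ifnb1 had 0 counts in untreated moDC and 3, 0, 0 and 3 counts after LPS, PAM, CpG A and CpG B. In pDC it had 1 count untreated and 24, 0, 1 and 9 counts, a ratio of 17.1 after LPS with a counting interval of 2.79 to 703. Of 25 interferon-stimulated genes tested, 1 was called higher at 1 h, Ifi204, in pDC (2.18 ± 0.53), and its value in moDC was 1.32 ± 0.42 (adjusted p = 0.156). Cxcl10, a chemokine that interferons and NF-kB both induce, had 12.4 CPM in untreated moDC and 185 CPM after LPS, and 15.9 and 234 CPM in pDC.

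The last comparison set LPS and PAM against CpG A and CpG B within each culture, which asks whether the class of ligand divides the first hour. It called 0 of 6621 genes in moDC (0%), 0 in pDC (0%) and 0 for the difference between cultures (0%), with 328, 233 and 310 genes at an unadjusted p under 0.05 by edgeR, and 0 in each by DESeq2. For Il12b the log2 fold change of LPS and PAM over the CpG ligands was -1.44 ± 1.39 in moDC (adjusted p = 0.974) and -3.03 ± 1.53 in pDC (adjusted p = 1.00). For Tnf, CpG A gave the lowest and CpG B the highest level of the 4 ligands in both cultures. Leaving out CpG A called 25 genes in moDC (9 higher and 16 lower with LPS and PAM) and 44 in pDC (2 and 42), and leaving out CpG B called 66 in moDC (62 and 4) and 80 in pDC (75 and 5).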

How the data were processed

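Libraries of 3′ ends of polyadenylated RNA were made, per the labels' protocols. Reads were aligned with TopHat to mm9, per the submitters' processing notes, and the counting tool is not given in the sources used here. The deposited table holds whole-number counts per gene, and its 1 unnamed entry (0.309 to 0.938% of a library) was left out. Of its 32 columns 10 were analysed, with 0 unmatched to a sample. Genes reaching 20 CPM in 4 or more libraries of a comparison were tested with edgeR 4.0.16 (TMM, quasi-likelihood, R 4.3.3, two-sided) and called at a Benjamini-Hochberg adjusted p under 0.05 and a fold of at least 2. A standard error is the size of the log2 fold change divided by the square root of F. DESeq2 1.42.0, other scalings, filters and blocks were alternatives. For single ligands 10 CPM was added to each value before the log2 ratio was taken, past the fold at 4-fold, and ratios carry exact binomial 95% intervals, which cover counting error only since reads are not independent molecules. Gene lists, and the choice of these libraries, were made with earlier results of these data known. Named genes are the 10 called with the largest change and 1 sign throughout, members of the lists on sensing and response, and up to 4 members of other lists, with Cebpb and Irf8. The olfactory sum, Rpph1, Lars2, Id1, Rgs2, Cdkn1a and Ifi204 were chosen after their values were seen, as were the promoters shown, which Python 3.11.15 searched. Of 21637 genes 19522 matched a reference symbol and 1935 an older one. Near-identical copies and overlapping genes can share reads. Libraries at other times and from sorted organs were not analysed here.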

Additional observations from a re-analysis of the deposited data

Results flagged for a closer look

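Egr1 stood out because its response differed between the cultures in the test of the difference with ligand as a block. It passed the threshold narrowly there and was not called without the block or without the CpG A libraries under the same filter. The log2 response of moDC minus that of pDC was -3.07 with ligand as a block, with 44.8 CPM in untreated moDC and 15.9 CPM in untreated pDC (18 and 6 counts).

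Id1 and Rgs2 stood out because all 4 libraries at 1 h lay on 1 side of untreated in moDC and on the other side in pDC. For Id1 the difference of log2 responses was -2.72, lower than untreated in moDC and higher in pDC. For Rgs2, a G protein regulator, it was 1.94, with 22.4 CPM in untreated moDC and 26.4 to 50.0 CPM at 1 h, and 178 CPM in untreated pDC and 40.8 to 114 CPM at 1 h. With the ligand block neither difference passed the adjusted threshold. No group analysed here held replicate libraries, so single libraries were not screened within groups.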

How the results depend on the processing

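The culture difference called 1419 genes, against 2816 by adjusted p alone, 2179 with no filter on low counts, 832 with a filter of 50 CPM, and 882 to 964 when 1 ligand was left out. The responses, with 0 calls each in moDC, pDC and their difference, gave 66, 88 and 1 with a ligand block, 66, 101 and 3 with no filter (ligand not a block), and 0 to 36, 0 to 79 and 0 to 0 when 1 ligand was left out. Ligand class, also 0 each, gave 11, 10 and 2 with no filter, and 0 to 66, 0 to 80 and 0 to 6 when 1 ligand was left out. The cause was not tested. With 2 CPM added, genes at least 4-fold above untreated numbered 61, 49, 15 and 86 in moDC after LPS, PAM, CpG A and CpG B, and 53 and 23 in pDC after PAM and CpG A. With 50 CPM they numbered 19, 6, 0 and 20 in moDC, and 25, 14 and 45 in pDC after LPS, PAM and CpG B. Signs of 5 culture differences turned under column totals, Cxcl16 -0.023, Nfkbia -0.037, Tnfaip3 -0.036, Relb -0.0028 and Irf5 -0.23. When 1 ligand was left out, Cd86 ranged from -0.21 to 0.073 and Irf5 from -0.042 to 0.17, and the difference of responses from -0.59 to 0.19 for Tnf and from -0.30 to 0.069 for Ccl3. The pDC response of Plk2 was -0.091 with the block. None of these values was called. Direction and side of the threshold were kept by 849 of 897 values (101 genes) of the culture difference, by 175 and 171 of 230 (23 genes) of the moDC and pDC responses and by 224 of 230 of their difference. Depth of 255062 to 748152 counts left genes with few counts, such as Egr1 in untreated pDC (6) and Dusp2 in untreated moDC (4), with wide intervals, and within 1 ligand a difference cannot be told apart from one between 2 libraries.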

Other observations

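Rpph1 was the 1 gene past 4-fold after CpG A in both cultures. It had 64.7 CPM in untreated moDC and 58.0, 76.4, 348 and 36.9 CPM after LPS, PAM, CpG A and CpG B, and 15.9 CPM in untreated pDC and 20.7, 21.8, 243 and 68.8 CPM. The CpG A library was the highest in each culture, 5.37-fold above untreated in moDC (95% counting interval 3.58 to 8.38) and 15.3-fold in pDC (6.64 to 43.3). Lars2, a mitochondrial leucyl-tRNA synthetase, had 1337 CPM in the pDC CpG A library and 174 to 413 CPM in the other 4 pDC libraries, whereas in moDC its highest level was after LPS, at 1110 CPM, with 541 CPM after CpG A. Olfactory receptor genes were also highest in the pDC CpG A library, at 3776 CPM, and their part was not tested.

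Interleukins of later waves were low at 1 h. Il6 had 2.49 CPM in untreated moDC and 42.2, 14.5, 2.67 and 92.2 CPM after LPS, PAM, CpG A and CpG B, and in pDC 2.65 CPM untreated and 3.77, 5.44, 7.84 and 15.0 CPM. Il23a, the partner of Il12b in interleukin 23, had 2.49 CPM in untreated moDC and 44.8, 16.5, 10.7 and 84.3 CPM at 1 h, and 2.15 to 7.84 CPM in all 5 pDC libraries. The highest levels of both were in moDC after CpG B, with LPS next.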
